A study of Mus musculus with 16 samples.

Results

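Tek, Kdr, Flt1, Cdh5 and Pecam1 are genes best known from the cells that line blood vessels, and their chromatin was followed here in epithelial cells of the thymus. The mark measured was H3K4me2, dimethylation of histone H3 at lysine 4, which is found at promoters and enhancers. All peaks that the deposited table gives to these genes were taken, which came to 16 of 29472 peaks and 5 of 15739 genes. The genes were chosen by the presence of a peak in this table, and a peak is in the table because it was called in at least 1 population. That each gene has a peak, and where it lies, is therefore a description and not a test.

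The cells were mTEC, the epithelium of the thymic medulla, from C57BL/6 mice, with no genetic change or treatment given in the labels and no age stated. Every population was sorted as CD45-negative and Epcam-positive. The mTEC-I gate took MHC class II low, Itgb4-positive cells, and the mTEC-II gate took MHC class II high cells. The mTEC-III gate took Ly6D-positive cells, and the mTEC-IV gate took L1cam-positive cells with low MHC class II and no Itgb4. Each population has 2 H3K4me2 libraries, so 8 libraries were compared. The labels call the cells enriched for a population and name no endothelial marker in the gates. They do not say whether replicates came from separate mice, so a p-value here measures the spread between libraries alone, which may be technical.

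Tek encodes TIE2, the receptor tyrosine kinase for angiopoietins. Kdr encodes VEGFR2, the main signalling receptor for VEGF-A in endothelium, and Flt1 encodes VEGFR1, which binds VEGF-A, VEGF-B and placental growth factor and can act as a decoy. Cdh5 encodes VE-cadherin, the cadherin of endothelial junctions, and Pecam1 encodes CD31, an adhesion molecule of endothelium, platelets and leukocytes. The last pair are adhesion molecules and not receptors for a soluble ligand. Medullary thymic epithelium is known for transcribing many genes of other tissues, and mTEC-IV cells are known as thymic tuft cells.

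Tek, Kdr and Flt1 had a peak over their start sites, and their promoters are shown because the 3 peaks behaved differently. The sequences are the 250 bases before each start from RefSeq (GRCm38.p6), which matched 3 of the 5 genes, and capitals mark GGAA or its reverse complement TTCC, the core bound by ETS factors.
Tek, chr4:94739039-94739288, plus strand: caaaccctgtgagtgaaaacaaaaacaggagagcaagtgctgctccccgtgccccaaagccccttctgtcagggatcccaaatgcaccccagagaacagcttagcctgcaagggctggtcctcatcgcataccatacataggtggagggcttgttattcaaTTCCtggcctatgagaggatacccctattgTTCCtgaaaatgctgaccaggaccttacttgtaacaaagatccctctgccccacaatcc
Kdr, chr5:75978456-75978705, minus strand: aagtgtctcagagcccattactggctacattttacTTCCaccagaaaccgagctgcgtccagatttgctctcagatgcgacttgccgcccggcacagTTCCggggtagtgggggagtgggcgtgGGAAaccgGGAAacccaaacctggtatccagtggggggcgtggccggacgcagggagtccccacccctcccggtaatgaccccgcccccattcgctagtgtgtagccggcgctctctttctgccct
Flt1, chr5:147726012-147726261, minus strand: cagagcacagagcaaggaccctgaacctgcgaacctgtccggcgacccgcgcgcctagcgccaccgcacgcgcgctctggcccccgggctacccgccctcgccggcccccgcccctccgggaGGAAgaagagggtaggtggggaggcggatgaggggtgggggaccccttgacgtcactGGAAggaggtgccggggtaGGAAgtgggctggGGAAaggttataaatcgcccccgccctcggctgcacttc

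The 3 promoters differed most in their CpG dinucleotides. Tek had 2, above 18.8% of the 32851 promoters in the table, where the median was 6. Kdr had 16, above 74.6% of them, and Flt1 had 23, above 86.7%. The G and C bases made up 51.2% of the Tek window, 61.6% of the Kdr window and 70.4% of the Flt1 window, against a median of 52.4%. Searched on both strands, GGAA matched 2 times in Tek, 4 times in Kdr and 4 times in Flt1. It is a common word, present in 93.4% of all promoter windows with a median of 3 matches. The longer word CAGGAA, which contains GGAA, covered both Tek matches and was absent from the Kdr and Flt1 windows. It occurs in 25.7% of windows. Flt1 held 1 TGACGTCA, the full cyclic AMP response element, which occurs in 1.55% of windows, and 1 TATAAA, which occurs in 12.4%. GGGCGG, the GC box, matched 2 times in Kdr and 3 times in Flt1 and occurs in 32.7% of windows. The octamer ATGCAAAT, bound by POU factors, is in 1.6% of windows and matched in none of the 3. These are matches of letters in a window, and no binding was measured.

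Levels are given as tags per 10000000 tags of a library, written below as tags per 10000000, and listed as replicate 1 then replicate 2. The libraries held 1702103.5 to 15412132.5 tags. In mTEC-I replicate 2, the smallest, a single tag equals a level of 5.88, and a count of 0 allows up to 17.6. In the other 7 libraries that floor was 1.95 to 4.64. A lower level can come from fewer cells with the mark or from less mark in each cell, and these cannot be told apart. Differences are on the log2(value + 1) scale with their standard errors from limma, and a call is an adjusted p under 0.05 over all 29469 tested peaks. All 16 peaks passed the filter on low values, at least 10 in 2 or more libraries, but Tek +9102 did so only through mTEC-IV. Tek +891, Tek +6850, Tek +9102, Cdh5 -228125 and Flt1 +28315 overlapped the authors' peak list of mTEC-IV alone. They may be in the table only through mTEC-IV, where they are high. Their mTEC-IV p-values are therefore a description and not an independent test.

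Over the whole group, 13 of the 16 peaks (81.2%) differed between the 4 populations by the F test, where 58.2% of all tested peaks did. Without Tek +9102 the count was 12 of 15 (80.0%). The count of 13 fell without any 1 library of mTEC-II, mTEC-III or mTEC-IV, as the number called over all peaks did. By position, 3 peaks lay within 1000 bases of the start site, 3 lay up to 20 kb from it, and 10 lay beyond 20 kb. Both mTEC-IV libraries stood above the other 6 in 7 peaks and below them in 1, against 22.3% and 11.4% of all tested peaks. The 7 peaks are Tek +891, Tek +6850, Tek +9102, Cdh5 -228125, Flt1 -26225, Flt1 +28315 and Flt1 +142615, each named by its distance in bases from the start site, negative upstream. Of the 16, mTEC-IV differed from mTEC-I in 9, where 40.6% of all peaks were called. It differed from mTEC-III in 9, where 35.3% of all peaks were called, and from mTEC-II in 7, where 30.1% were called. In each of the 3 comparisons every call but Flt1 -22970 was higher in mTEC-IV. Without Tek +9102 these counts were 8, 8 and 6 of 15, and both mTEC-IV libraries stood above the other 6 in 6 of 15. That count of 7 calls against mTEC-II fell to 4 without mTEC-II replicate 1, and to 3 without mTEC-II replicate 2, without mTEC-IV replicate 1 or without mTEC-IV replicate 2. Pairs without mTEC-IV gave fewer calls, 2 of 16 for mTEC-II and mTEC-I (25.3% of all peaks), 5 for mTEC-III and mTEC-I (30.8%) and 2 for mTEC-III and mTEC-II (17.6%). The first of these counts was 8 without mTEC-I replicate 1 and 1 without either library of mTEC-II or mTEC-IV. The second was 8 without mTEC-I replicate 1, 3 without mTEC-III replicate 2 and 1 without mTEC-III replicate 1. The third was 5 with edgeR, 4 with DESeq2, 6 without either mTEC-I library, and 0 or 1 without any 1 library of the other populations.

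**Figure D1:**
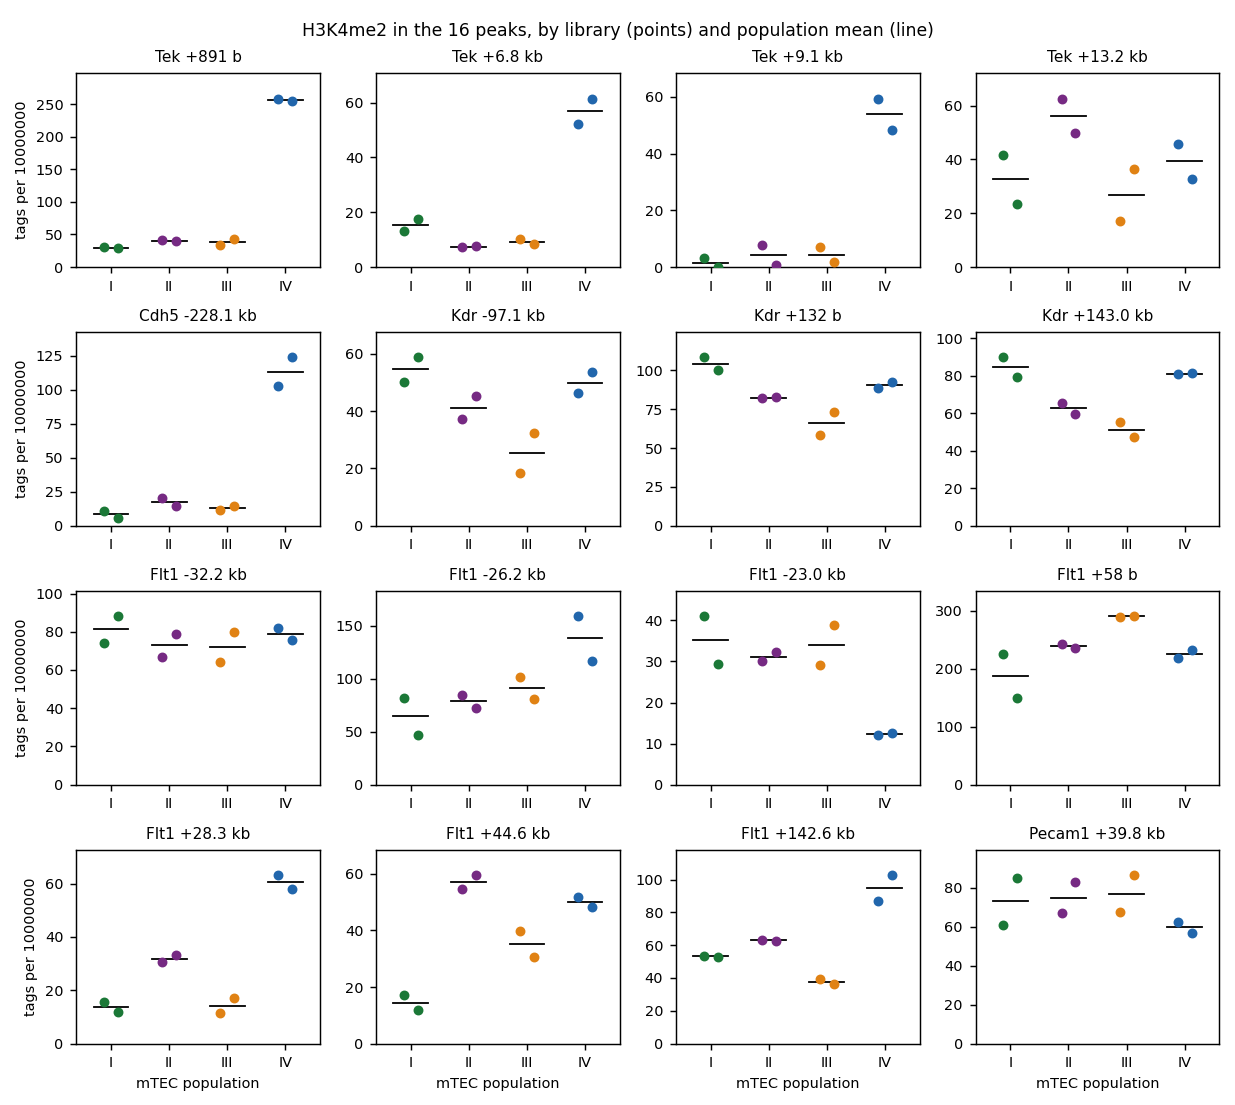
H3K4me2 level (y axis, tags per 10000000, from 0, scaled per panel) of each of the 16 peaks in the 8 libraries (x axis, mTEC population I to IV, 2 points each), with the population mean as a line. The first 3 Tek peaks and the Cdh5 peak are high in both mTEC-IV libraries and low in the other 6, while the Pecam1 peak and Flt1 -32203 overlap between populations.

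Of the 3 marked start sites, that of Tek differed most between populations. Its promoter peak (mm9 chr4:94404935-94408807, centre 891 bases downstream of the start, annotated as intron 1 of 22) measured 30.2 and 29.4 tags per 10000000 in mTEC-I. The other populations gave 40.9 and 39.6 (mTEC-II), 34.1 and 43.6 (mTEC-III) and 259 and 256 (mTEC-IV). The 2 mTEC-IV libraries stood far above the other 6, which ranged from 29.4 to 43.6. The mean in mTEC-IV was 8.64 times that in mTEC-I, 6.39 times that in mTEC-II and 6.63 times that in mTEC-III. On the log2 scale it was higher than in mTEC-I by 3.07 ± 0.20 (limma, adjusted p = 8.7e-07), than in mTEC-II by 2.65 ± 0.20 (adjusted p = 5.1e-06) and than in mTEC-III by 2.71 ± 0.20 (adjusted p = 3.8e-06). These calls held in every alternative run. The peak was in the authors' mTEC-IV list alone, so these p-values describe it and are no independent test. Among the 11330 tested peaks within 1000 bases of a start, the Tek peak ranked above 4.6% of them in both mTEC-I and mTEC-II, above 6.7% in mTEC-III and above 89.3% in mTEC-IV.

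A pair of further Tek peaks in the same intron followed the promoter. Tek +6850 measured 13.2 and 17.6 tags per 10000000 (mTEC-I), 7.14 and 7.78 (mTEC-II), 10.1 and 8.24 (mTEC-III) and 52.2 and 61.5 (mTEC-IV). The mTEC-IV libraries lay above all others, by 2.77 ± 0.41 over mTEC-II (limma, adjusted p = 4.0e-04) and 2.51 ± 0.41 over mTEC-III (adjusted p = 6.9e-04). Over mTEC-I the difference was 1.83 ± 0.41 (adjusted p = 0.0034), a call that ended without mTEC-IV replicate 2. Tek +6850 too was in the mTEC-IV list alone. Tek +9102 measured 3.1 and 0 tags per 10000000 (mTEC-I), 7.79 and 0.74 (mTEC-II), 6.94 and 1.77 (mTEC-III) and 59.4 and 48.4 (mTEC-IV). The mTEC-IV values rest on 54.0 and 40.5 tags, while the mTEC-I libraries held 2.0 and 0 tags, too few for a ratio. Both mTEC-IV libraries lay above the other 6, whose highest value was 7.79. This peak passed the filter only through mTEC-IV, so it had to differ there and no test of it is given.

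The last Tek peak did not follow the other 3. Tek +13234 measured 41.8 and 23.5 tags per 10000000 (mTEC-I), 62.6 and 49.6 (mTEC-II), 17.0 and 36.5 (mTEC-III) and 45.6 and 32.9 (mTEC-IV). Its mTEC-IV libraries fell within the range of the others, and the F test did not call it (adjusted p = 0.106). It was called by edgeR on recovered counts (adjusted p = 0.0020) and by DESeq2 (adjusted p = 0.019). It was also called without mTEC-I replicate 1 (adjusted p = 0.0050), without mTEC-I replicate 2 (adjusted p = 0.012) or without mTEC-III replicate 2 (adjusted p = 0.042). Summed over its 4 peaks, Tek carried 79.4 ± 13 in mTEC-I, 108 ± 15 in mTEC-II, 79.1 ± 16 in mTEC-III and 407 ± 13 in mTEC-IV (SD, n = 2). The neighbours mTEC-II, mTEC-I and mTEC-III in that order were not told apart. The promoter peak made up 63.2% of the Tek sum in mTEC-IV and 37.2% to 49.1% in the other populations.

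**Figure D2:**
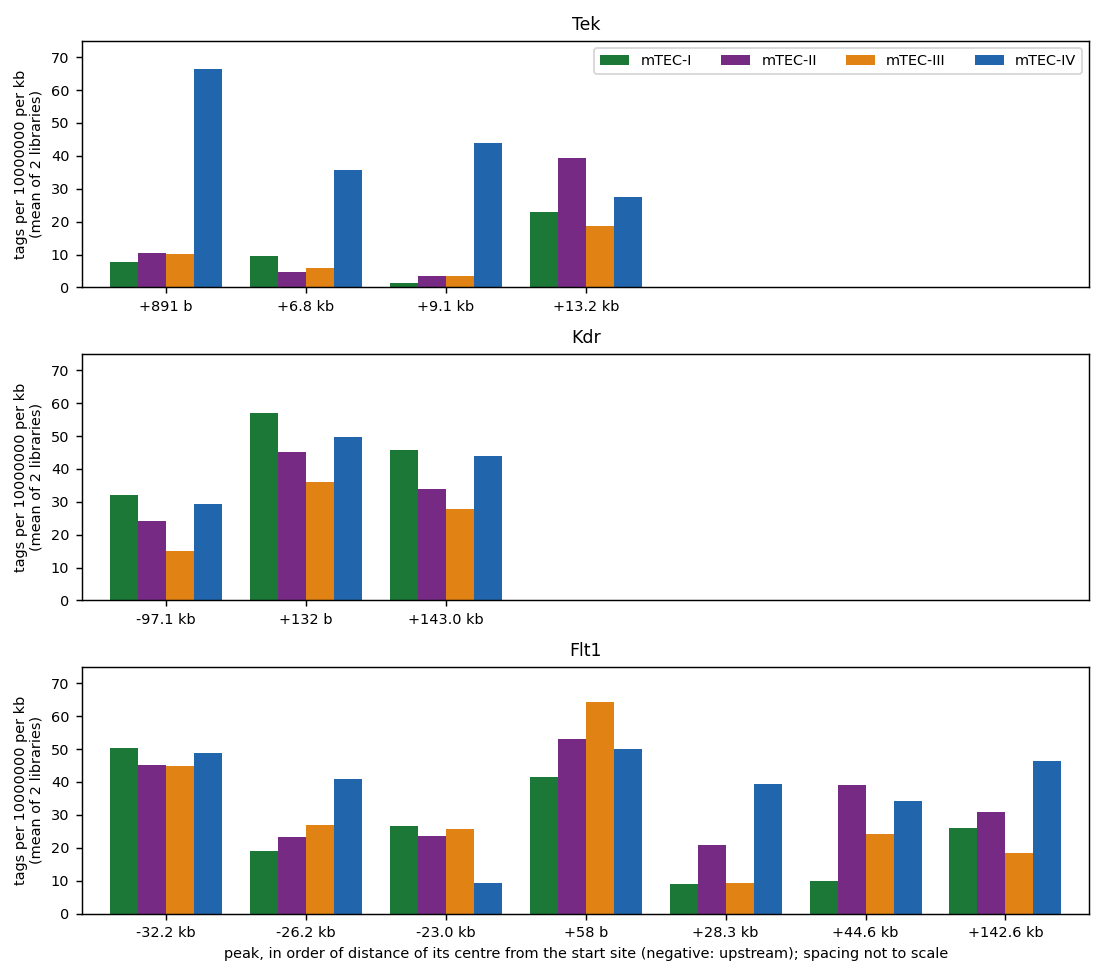
Mean H3K4me2 of 2 libraries per kb of peak length (y axis, tags per 10000000 per kb, from 0) for the peaks of Tek, Kdr and Flt1, in order along each gene (x axis, distance of the peak centre from the start site, spacing not to scale), with 1 bar per population. In Tek, 3 of 4 peaks are high in mTEC-IV, and in Kdr the 3 peaks keep 1 order of means. In Flt1 the order of means changes from peak to peak, which was not tested.

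Kdr showed a different order, with mTEC-III lowest. Its promoter peak (mm9 chr5:76373410-76375232, centre 132 bases downstream of the start, annotated as 5′ UTR in exon 1 of 30) measured 108 and 99.9 tags per 10000000 in mTEC-I. The other populations gave 82.1 and 82.9 (mTEC-II), 58.7 and 73.0 (mTEC-III) and 88.5 and 92.6 (mTEC-IV). Both mTEC-I libraries were above, and both mTEC-III libraries below, those of every other population. The F test called the peak (limma, adjusted p = 0.030), but not without 1 of the mTEC-II or mTEC-IV libraries or mTEC-III replicate 1 (0.058 to 0.147). The difference of mTEC-III from mTEC-I was -0.66 ± 0.17 (limma, adjusted p = 0.012), which ended without mTEC-III replicate 1 (adjusted p = 0.1004). Among promoter peaks the Kdr peak stood above 23.01% of them in mTEC-I, 18.7% in mTEC-IV, 17.3% in mTEC-II and 14.2% in mTEC-III.

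Both distant Kdr peaks kept that order of population means, mTEC-I, mTEC-IV, mTEC-II and mTEC-III. Neighbours in that order were not told apart in any Kdr peak. Kdr -97075, intergenic and upstream, measured 50.3 and 58.8 tags per 10000000 (mTEC-I), 37.3 and 45.2 (mTEC-II), 18.3 and 32.4 (mTEC-III) and 46.2 and 53.8 (mTEC-IV). Kdr +143024, intergenic and past the gene on the side where RefSeq places Kit, measured 89.8 and 79.3 tags per 10000000 (mTEC-I), 65.5 and 59.6 (mTEC-II), 55.5 and 47.1 (mTEC-III) and 80.8 and 81.3 (mTEC-IV). In both peaks the mTEC-III libraries lay below all 6 others. The peaks are given to Kdr as the nearest start site, and no contact between them and the gene was measured. Neither peak kept its F test call under every library left out, as Kdr -97075 lost it without mTEC-III replicate 1 (limma, adjusted p = 0.176) or mTEC-IV replicate 2 (0.059). Kdr +143024 lost it without mTEC-III replicate 2 (adjusted p = 0.078) or mTEC-II replicate 2 (0.0501). Summed over the 3 peaks, Kdr carried 243 ± 7.4 in mTEC-I, 222 ± 8.5 in mTEC-IV, 186 ± 2.0 in mTEC-II and 142 ± 14 in mTEC-III (SD, n = 2). By these sums mTEC-IV was told apart from neither mTEC-I (limma, adjusted p = 0.42) nor mTEC-II (adjusted p = 0.15). On these sums mTEC-III was lower than mTEC-I by 0.77 ± 0.12 on the log2 scale (limma, difference -0.77, adjusted p = 1.5e-04), a call held in every alternative run. The sum in mTEC-IV was higher than in mTEC-III by 0.64 ± 0.12 (adjusted p = 7.0e-04), which ended when only peaks within 20 kb, here the promoter peak alone, were kept (adjusted p = 0.071).

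Flt1 had the most peaks, 7, a number that 2.31% of genes reach. Its promoter peak (mm9 chr5:148535257-148539755, centre 58 bases downstream of the start) measured 224 and 149.8 tags per 10000000 (mTEC-I), 242 and 235 (mTEC-II), 289.6 and 290.3 (mTEC-III) and 218 and 231 (mTEC-IV). It was high in every population, above 63.7% of promoter peaks in mTEC-I and 92.3% in mTEC-III. The mTEC-III libraries were the highest, and the mTEC-I replicates differed more from each other than those of any other population. The F test called the peak (limma, adjusted p = 0.020), but not without mTEC-III replicate 1 (0.097) or replicate 2 (0.096).

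**Figure D3:**
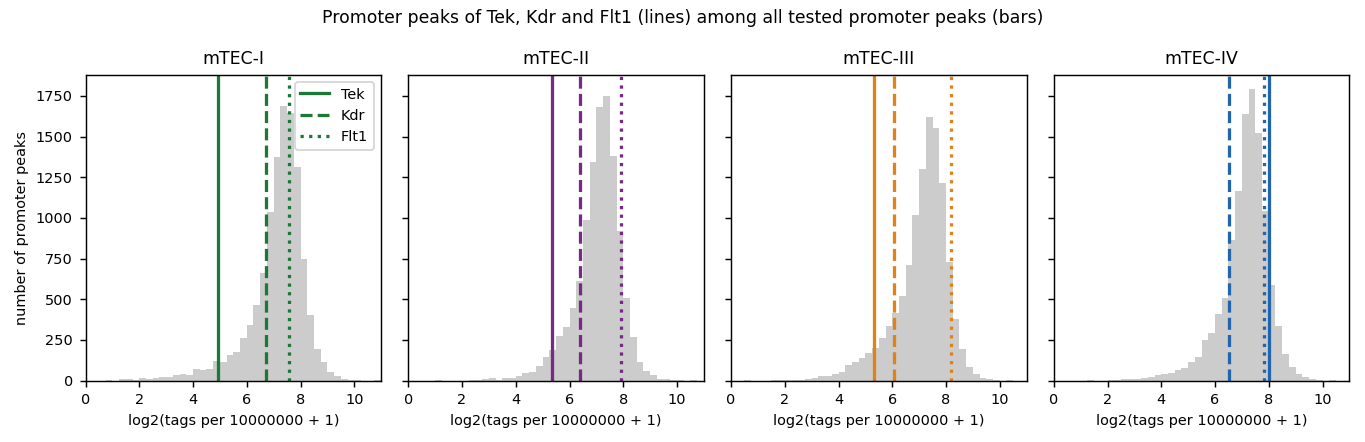
Number of tested promoter peaks (y axis) by mean level in each mTEC population (x axis, log2 of tags per 10000000 + 1), with the promoter peaks of Tek, Kdr and Flt1 as vertical lines. The Tek line moves from the low tail in 3 populations to the upper side in mTEC-IV, while the Flt1 line stays above and the Kdr line below the middle of the bars.

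Inside the Flt1 gene, 3 intronic peaks differed between populations. Each had its own order of means, but the change of order between peaks was not tested. Flt1 +28315 (intron 3 of 29) measured 15.5 and 11.8 tags per 10000000 (mTEC-I), 30.5 and 33.3 (mTEC-II), 11.4 and 17.1 (mTEC-III) and 63.2 and 58.0 (mTEC-IV). The mTEC-IV libraries were the highest and those of mTEC-II came next, above the other 4. In mTEC-IV the level exceeded that in mTEC-I by 2.09 ± 0.34 (limma, adjusted p = 4.4e-04) and that in mTEC-III by 2.04 ± 0.34 (adjusted p = 7.9e-04), which held in every alternative run. Its difference from mTEC-II, 0.90 ± 0.34, was not called (adjusted p = 0.063). Flt1 +28315 was in the mTEC-IV list alone, so its p-values are no independent test.

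Flt1 +44571 (intron 6) measured 17.0 and 11.8 tags per 10000000 (mTEC-I), 54.8 and 59.6 (mTEC-II), 39.7 and 30.6 (mTEC-III) and 51.7 and 48.4 (mTEC-IV). Here mTEC-I stood alone at the low end, and the other 3 populations were higher. Over mTEC-I, the level was higher by 1.94 ± 0.29 in mTEC-II (limma, adjusted p = 7.2e-04) and by 1.75 ± 0.29 in mTEC-IV (adjusted p = 4.7e-04). Flt1 +142615 (intron 20) measured 53.4 and 52.9 tags per 10000000 (mTEC-I), 63.3 and 62.6 (mTEC-II), 39.1 and 36.5 (mTEC-III) and 86.9 and 103 (mTEC-IV). No libraries of different populations overlapped in that peak. The level in mTEC-IV exceeded that in mTEC-III by 1.30 ± 0.20 (adjusted p = 4.7e-04), held in every alternative run, and that in mTEC-I by 0.82 ± 0.20 (adjusted p = 0.0057), which ended without mTEC-IV replicate 2 (0.066).

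Upstream of Flt1, a pair of neighbouring peaks moved in opposite directions in mTEC-IV. Flt1 -26225 measured 82.0 and 47.0 tags per 10000000 (mTEC-I), 84.7 and 72.6 (mTEC-II), 102 and 81.3 (mTEC-III) and 159 and 117 (mTEC-IV), so both mTEC-IV libraries were above all others. Flt1 -22970 measured 41.0 and 29.4 tags per 10000000 (mTEC-I), 30.2 and 32.2 (mTEC-II), 29.0 and 38.9 (mTEC-III) and 12.1 and 12.6 (mTEC-IV), the only peak of the 16 with both mTEC-IV libraries below all others. Against mTEC-I, Flt1 -26225 was higher by 1.12 ± 0.25 (limma, adjusted p = 0.0038) and Flt1 -22970 differed by -1.42 ± 0.33 (adjusted p = 0.0041). The first of these calls, and the F tests of both peaks, ended without mTEC-IV replicate 1, with adjusted p of 0.061 for the first call, 0.128 for the F test of Flt1 -26225 and 0.053 for that of Flt1 -22970. The opposite directions were not tested as an interaction. The third upstream peak, Flt1 -32203, ranged from 64.3 to 88.1 over the 8 libraries with overlapping populations, and the F test did not call it (adjusted p = 0.786). The 7 peaks together gave 449 ± 83 in mTEC-I, 573 ± 1.6 in mTEC-II, 575 ± 0.014 in mTEC-III and 659 ± 19 in mTEC-IV (SD, n = 2). The mTEC-IV sum exceeded the mTEC-I sum by 0.56 ± 0.10 on the log2 scale (adjusted p = 3.3e-04), which ended with only peaks within 20 kb, here the promoter peak alone (adjusted p = 0.154).

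**Figure D4:**
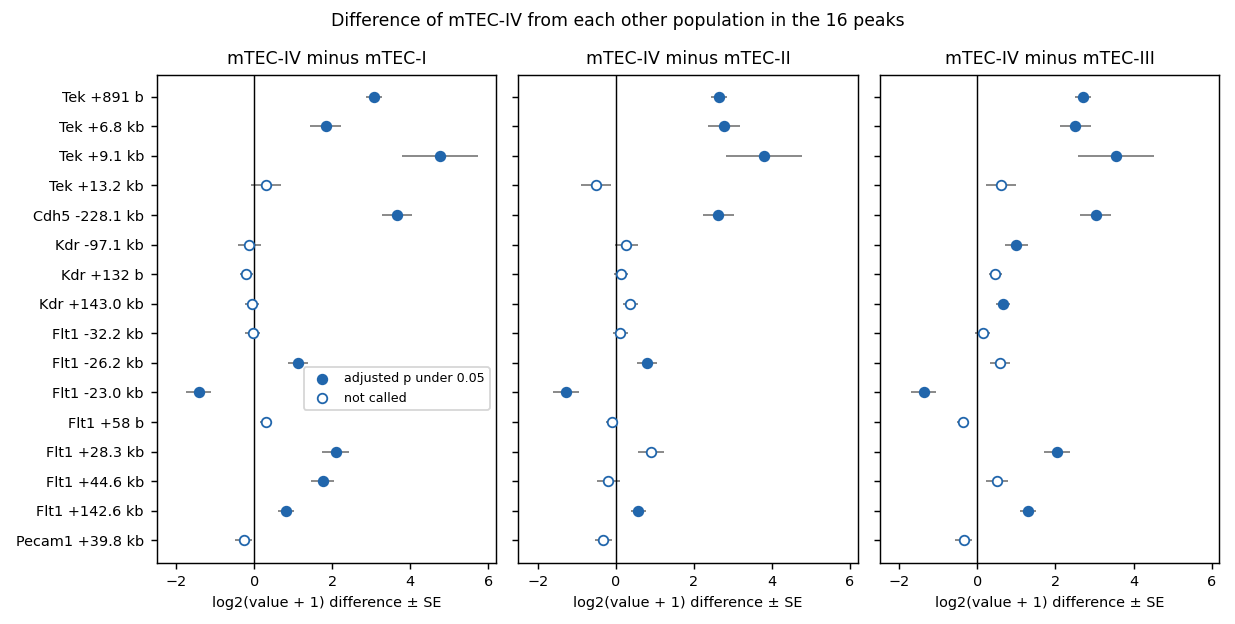
Difference of mTEC-IV from mTEC-I, mTEC-II and mTEC-III (x axis, log2(value + 1), bars are standard errors from limma) for each of the 16 peaks (y axis), with filled points for adjusted p under 0.05. Tek +891, Tek +6850 and Cdh5 -228125 lie at 1.83 or more in all 3 panels, and Flt1 -22970 lies below 0 in all 3. Tek +9102 also lies at 1.83 or more in all 3, but it passed the filter only through mTEC-IV, so its filled points are not a test.

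Cdh5 had a single peak, and it was far from the gene. It lies 228125 bases upstream of the Cdh5 start (mm9 chr8:106396253-106398547), is intergenic, and its centre falls in an RMER1B repeat. It measured 10.8 and 5.88 tags per 10000000 (mTEC-I), 20.4 and 14.8 (mTEC-II), 11.4 and 14.7 (mTEC-III) and 103 and 124 (mTEC-IV). Both mTEC-IV libraries stood above the other 6, whose highest value was 20.4. The differences of mTEC-IV were 3.66 ± 0.39 from mTEC-I (limma, adjusted p = 2.5e-05), 2.63 ± 0.39 from mTEC-II (adjusted p = 4.3e-04) and 3.03 ± 0.39 from mTEC-III (adjusted p = 1.5e-04), all of which held in every alternative run. The peak was in the authors' mTEC-IV list alone, so the p-values describe it and are no independent test. No peak of the table, of any gene, lay within 50 kb of the Cdh5 start. The record for Cdh5 is thus a distant region assigned by nearness, and the table holds no marked start site for it. In mTEC-I replicate 2 the value is 1 tag.

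Pecam1 also had a single peak, inside the gene and away from the start. It lies 39774 bases downstream of the start (mm9 chr11:106535567-106538075), in intron 12 of 14. It measured 61.1 and 85.2 tags per 10000000 (mTEC-I), 66.8 and 82.9 (mTEC-II), 67.5 and 86.6 (mTEC-III) and 62.7 and 56.8 (mTEC-IV). All populations overlapped except that mTEC-II and mTEC-III were each above mTEC-IV, and the F test did not call the peak (limma, adjusted p = 0.460). The peak nearest the Pecam1 start was at least 20792 bases away, whichever strand is taken.

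For whole genes, 4 of the 5 sums differed between populations (limma F test over genes), where 54.2% of all genes did, and Pecam1 was the exception (adjusted p = 0.470). By pairs, mTEC-IV differed from mTEC-I in 3 sums (35.7% of all genes were called), from mTEC-II in 2 (25.9%) and from mTEC-III in 3 (33.5%), and mTEC-III from mTEC-I in 2 (31.4%). Correlation over the 8 libraries, a description whose points share depth and population, gave genes of like profile. Nearest to Tek was Chn1 (Pearson r = 0.996), nearest to Cdh5 was Ldlrad3 (r = 0.996) and nearest to Kdr was Col2a1 (r = 0.995), each among 14212 genes. Flt1 lay nearest to Gimap5 (r = 0.991) and Pecam1 to Nsf (r = 0.945). No member was among the 3 nearest genes of another.

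The authors' own peak lists, made for each population with both replicates combined, give the same 16 peaks as present or absent. Of the 16 peaks, 1 overlapped the mTEC-I list, 11 the mTEC-II list, 6 the mTEC-III list and 14 the mTEC-IV list. The share of all merged peaks that overlap each list was not counted. These numbers therefore describe the 16 peaks and do not set them apart from other peaks. Only Flt1 +58 was in all 4 lists, and 5 peaks were in the mTEC-IV list alone, namely Tek +891, Tek +6850, Tek +9102, Cdh5 -228125 and Flt1 +28315. Tek +13234 and Flt1 -22970 were in the mTEC-II list alone. In the mTEC-IV list the authors give Tek +891 a 30.23-fold and Cdh5 -228125 a 27.28-fold enrichment over their control. The lists hold 7036, 23949, 19321 and 22757 peaks for mTEC-I to mTEC-IV, and the lowest tag count in the mTEC-I list was 142.7, where the other lists go down to between 33.4 and 41.8. Absence from the mTEC-I list is therefore not absence of signal, and Kdr +132 at 108 and 99.9 tags per 10000000 was not in it.

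Other genes of the pathways were read from fixed lists, by the sum of each gene's peaks. The list of vascular receptors and ligands has 18 names for 17 genes, since Figf is an older symbol of Vegfd in RefSeq. Of the 17, 14 had a peak and 10 of these (71.4%) differed between populations, where 54.2% of all genes did. No peak was given to Tie1, the partner receptor of TIE2, or to Eng and Angpt4. Between mTEC-IV and mTEC-II, 3 of the 14 were higher, 1 was lower and 10 were not called, where 16.4% and 9.43% of all genes were called. The median difference was 0.08 in the list and 0.08 over all genes.

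Nrp2, a co-receptor for VEGF-C and semaphorins, measured 513 and 538 tags per 10000000 (mTEC-I), 609.6 and 579.8 (mTEC-II), 498 and 536 (mTEC-III) and 871 and 896 (mTEC-IV). Its mTEC-IV libraries were the highest, by 0.57 ± 0.08 over mTEC-II (limma, adjusted p = 3.0e-05). Vegfa, the ligand of VEGFR2 and VEGFR1, was higher in mTEC-IV than in mTEC-II by 0.48 ± 0.09 (adjusted p = 5.8e-04). Acvrl1, a receptor for BMP9, was higher by 0.58 ± 0.14 (adjusted p = 0.0045), though its F test call ended with equal totals in peaks or without either library of mTEC-II or mTEC-IV (0.0505 to 0.103). Plxnd1, a semaphorin receptor, differed by -0.53 ± 0.11 (adjusted p = 0.0019). Pgf, the ligand of VEGFR1, was highest in mTEC-I at 314 and 420.1, with the other 6 libraries at 119.9 to 145. Angpt1, the activating ligand of TIE2, was highest in mTEC-I at 372 and 358, above the other 6 at 246 to 282. Angpt2, its context-dependent antagonist, was at 119.9 to 134 in the mTEC-II and mTEC-IV libraries and at 49.9 to 80.5 in those of mTEC-I and mTEC-III. Nrp1 was also highest in mTEC-I, at 443 and 429 against 252 to 347 elsewhere. Flt4, the receptor for VEGF-C, measured 148 and 200.1 in mTEC-IV, a range that holds both mTEC-I and mTEC-II. Its F test call (adjusted p = 0.0090) ended without mTEC-III replicate 1 (0.091) or replicate 2 (0.065). Vegfb was called by the F test at adjusted p = 0.048, which ended in most alternatives, and Vegfc (0.33), Figf (0.37), Robo4 (0.083) and Ptprb (0.58) were not called.

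Endothelial surface and secreted genes were called in both directions between mTEC-IV and mTEC-II. Of 22 names 13 had a peak and 11 of these (84.6%) differed between populations, where 54.2% of all genes did. Of the 13, 2 were higher and 2 lower in mTEC-IV than in mTEC-II, with a median difference of -0.02. Over all genes 16.4% were called higher and 9.43% lower. The count of 11 was 6 without mTEC-IV replicate 1. The 2 higher genes became 5 without either mTEC-I library and 1 within 20 kb, and the 2 lower became 0 or 1 without any 1 library of the other 3 populations. Emcn, an endothelial sialomucin, was higher in mTEC-IV than in mTEC-II by 1.91 ± 0.36 (limma, adjusted p = 8.5e-04), at 79.7 and 55.0 tags per 10000000 against 20.1 and 14.1. In mTEC-I it stood at 39.5 and 70.5, overlapping mTEC-IV, and that difference was not called (0.32 ± 0.36, adjusted p = 0.53). Cd34, a sialomucin of endothelium and blood progenitors, was highest in mTEC-I at 85.1 and 64.6 and stood at 19.2 and 22.1 in mTEC-IV. S1pr1, a lipid receptor of endothelium and lymphocytes, had the narrowest range of the called genes (adjusted p = 0.035), and its call ended without either mTEC-II library, either mTEC-IV library or mTEC-III replicate 2. Ecscr was called at adjusted p = 0.043 and lost the call without any 1 library of mTEC-II, mTEC-III or mTEC-IV. All 20 endothelial transcription factors had a peak and 16 (80.0%) differed, where 54.2% of all genes did. Of the 20, 6 were higher and 3 lower in mTEC-IV than in mTEC-II (16.4% and 9.43% of all genes), with a median of 0.07. With equal totals in peaks, or without mTEC-II replicate 2 or either mTEC-IV library, the count of higher factors was 3. The count of lower factors became 5 with edgeR or without either mTEC-I library, and 1 within 20 kb or without mTEC-II replicate 2 or mTEC-IV replicate 1. Erg, an ETS factor of endothelium, measured 104 and 138 tags per 10000000 (mTEC-I), 277 and 278 (mTEC-II), 210.1 and 224 (mTEC-III) and 316 and 315 (mTEC-IV). Sox18 ran the other way, at 116 and 156 in mTEC-I and 24.7 and 24.5 in mTEC-IV. Etv2 was listed at 23.99 and 0 in mTEC-I, at 51.9 and 48.1 in mTEC-II, and its call (adjusted p = 0.020) ended with DESeq2 or without either mTEC-III library. Hey2 had the narrowest range of the called factors (adjusted p = 0.010), a call that ended without mTEC-I replicate 2 (0.058). Scaling libraries to equal totals in peaks shifted the median over all genes of mTEC-IV minus mTEC-II by -0.13, and the share of higher among called genes went from 63.5% to 43.0%. For peaks that share went from 57.9% to 45.8%.

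Markers of other cell types were summed beside these results. The 7 measured endothelial markers other than the 5 genes, of 8 named, summed to 1443 to 1465 tags per 10000000 in mTEC-IV and 913 to 1208 in the other 6 libraries. By gene, Esam, Vwf and Erg were highest in both mTEC-IV libraries, while Emcn overlapped mTEC-I. Egfl7 was lowest in mTEC-IV, at 80.3 and 74.1 against 86.3 to 165. Cldn5 (limma F test, adjusted p = 0.26) and Sox17 (0.071) were not called. The 5 measured haematopoietic markers, of 8 named, summed to 1652 to 1749.9 in mTEC-IV and 624 to 819.8 in the others. Within that list Ptprc, which encodes CD45, stood at 269 and 265 in mTEC-IV and 30.03 to 48.9 elsewhere, and Vav1 and Cd79a were also highest in mTEC-IV. Itgam was lowest there, at 12.1 and 16.7 against 20.1 to 43.5, Ikzf1 was not called by the F test (limma, adjusted p = 0.092), and Spi1, Cd3e and Lck had no peak. The tuft markers, 7 of 8 measured, summed to 5094 to 5224 in mTEC-IV and 1025 to 1179 in the others. The sum of the pan-epithelial markers, 8 of 8 measured, was also highest in mTEC-IV, at 5002 to 5193 against 3387 to 4062. Epcam, Krt8, Krt18 and Cldn7 were highest in both mTEC-IV libraries. Krt7 was lowest there, with a mean of 176 against 398 in mTEC-I. The means of Cdh1 (809 against 787 in mTEC-IV) and Cldn4 (459 against 416) were highest in mTEC-III. The fibroblast and pericyte markers, 6 of 7 measured, had their highest sum in mTEC-I, at 1063 to 1137 against 519 to 683 elsewhere. Among them Pdgfra, which lies beyond Kit from Kdr in RefSeq, had the Kdr order of means, 359.5 in mTEC-I, 213 in mTEC-IV, 187 in mTEC-II and 148 in mTEC-III, while Pdgfrb was highest in mTEC-IV at 126 and 127. Of the 6 megakaryocyte and platelet markers 1 had a peak, with 92.0 to 96.2 in mTEC-IV inside the range of 57.1 to 105 in the others. The part of endothelial or haematopoietic cells in the Tek, Cdh5 and Flt1 results was not tested, nor was that of fibroblasts or pericytes in those for Kdr, Pgf, Angpt1, Cd34 and Sox18.

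**Figure D5:**
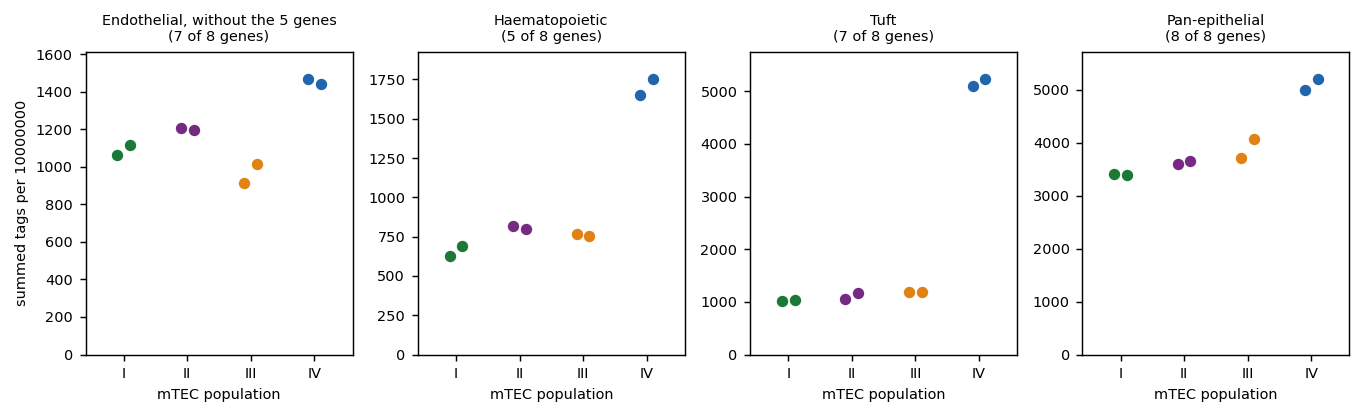
Summed H3K4me2 (y axis, tags per 10000000, from 0) of the measured genes of 4 marker lists in the 8 libraries (x axis, mTEC population, 2 points each). All 4 sums are highest in mTEC-IV, by the widest margin for the tuft list (5094 to 5224 against at most 1179).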

How the data were processed

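H3K4me2 ChIP-seq libraries of 4 sorted mTEC populations were used, 2 per population, and the whole-cell extracts were not used here. The genome build was mm9, and Picard 1.108 and bcl2fastq 2.15.0.4 are named, all per the submitters' processing notes; no source used here names the aligner. The signal of each merged peak, in tags per 10000000 tags of a library, is as the authors deposited it, from HOMER's annotatePeaks per the file headers, which also give the library totals. In the deposited peak lists the authors give a signal and a fold over control, a ratio, with replicates combined. Steps of 0.5 tags were recovered, with 100% of values within 0.1 tags of a step.

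Peaks with at least 10 in 2 or more libraries were tested with limma 3.58.1 (R 4.3.3) on log2(value + 1), trended variance, over 29469 peaks and, as sums of the peaks given to a gene, 15738 genes. P-values were adjusted by Benjamini-Hochberg over all of them, and mitochondrial peaks were left out. Such a difference understates the change of low peaks. Alternatives were edgeR 4.0.16 and DESeq2 1.42.0 on the recovered counts (1 count per step), pseudocount 5, no filter, equal totals in peaks, TMM factors, a replicate block, peaks within 20 kb and each library left out. The script was tested on simulated data. Intervals of counting error, such as the floor of 3 tags for a count of 0, do not cover other error.

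The 5 genes and the gene lists were chosen with earlier results of these data known. Named from each list were the 3 called genes with the widest and the 1 with the narrowest range of population means, and all vascular receptors and ligands. For likeness, genes with a mean of at least 50 tags per 10000000 were ranked by correlation.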

Additional observations from a re-analysis of the deposited data

How the results depend on the processing

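Of 1025 results and alternatives for the 16 peaks and 5 genes, 935 kept direction and call, 85 lost the call and 5 gained it, and no direction turned. Numbers of called peaks among the 16 moved most when a library was left out: 3 to 8 for mTEC-IV against mTEC-II, 1 to 8 for mTEC-II against mTEC-I and 1 to 8 for mTEC-III against mTEC-I. For mTEC-III against mTEC-II the 2 calls became 5 with edgeR, 4 with DESeq2, 1 with the replicate block and 0 to 6 with a library left out. Endothelial surface genes called by the F test numbered 6 to 12 with a library left out. Those higher in mTEC-IV than in mTEC-II numbered 2 to 5, and 1 with peaks within 20 kb, and those lower numbered 0 to 3. Endothelial transcription factors higher numbered 3 with equal totals and 3 to 6 with a library left out, and those lower 5 with edgeR, 1 within 20 kb and 1 to 5 with a library left out. Calls over all peaks and all genes also moved between these runs, so such shifts need not be particular to these genes. The cause was not tested. Libraries with the same replicate number shared little variation, as the replicate differences of 2 populations correlated at -0.0125 to 0.0159 over 29469 peaks. That does not show whether such libraries were handled together. With the replicate block, Flt1 +142615 over mTEC-II (adjusted p = 0.059) and Flt1 +28315, mTEC-III minus mTEC-II (0.051), were no longer called. Tek +9102 could not be tested without either mTEC-IV library, as it then failed the filter. A library left out leaves 1 in its population, which is then assumed to vary like the others. Depth limits mTEC-I replicate 2 most: replicates of mTEC-I correlated at 0.916, against 0.972 to 0.984 elsewhere.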
